A study of Mus musculus with 23 samples.

Results

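Cyp1b1 and 5 genes of the aryl hydrocarbon receptor (AhR) response, Cyp1a1, Ahr, Ahrr, Arnt and Tiparp, were followed in primary endothelial cells of the mouse aorta, which form its inner lining, across 4 kinds of mouse plasma. The genes were chosen by symbol, as the receptor, its partner and classic targets, after Cyp1b1 had been seen to be higher with plasma of ApoE-deficient mice, and the question was whether other AhR genes moved with it. All 6 symbols were found in the array annotation, each on 1 probe set, 6 of 24704 named genes measured. Their Entrez gene numbers are 13078 for Cyp1b1, 13076 for Cyp1a1, 11622 for Ahr, 11624 for Ahrr, 11863 for Arnt and 99929 for Tiparp. The cells were kept for 48 h in medium in which 10% plasma took the place of calf serum. The plasma donors were mice without apolipoprotein E (ApoE-KO, 5 arrays), mice that also lacked Stabilin-1 (ApoE-Stab1-KO, 6 arrays) or Stabilin-2 (ApoE-Stab2-KO, 6 arrays), both scavenger receptors of sinusoidal endothelium, and wildtype mice (6 arrays), all with the strain label C57BL/6J. The 3 knockout donor groups had been on Western diet for 8 weeks, while the labels are silent on what wildtype donors ate, and a comparison with wildtype plasma therefore joins genotype and diet, which cannot be told apart. The knockouts are those of the donors, and the cultured cells carried none by the labels. The labels do not say whether arrays of a group came from separate donors or cultures, so the spread between them may be technical.

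AhR is a ligand-activated transcription factor of the bHLH-PAS family that waits in the cytoplasm with HSP90 and other chaperones. Once a ligand binds, such as a dioxin, a polycyclic hydrocarbon or a tryptophan metabolite, it enters the nucleus, pairs with ARNT and binds DNA elements with the core GCGTG. Its targets include the P450 enzymes CYP1A1 and CYP1B1, which oxidize hydrocarbons and also oestrogens and fatty acids, and the feedback inhibitors AHRR and TIPARP. CYP1B1 differs from CYP1A1 in that it is made in many tissues without an added ligand, among them vascular cells, where blood flow is also known to raise it.

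The stretches of DNA around the starts of the 4 target genes are shown because they allow a direct look for the letters that the receptor pair binds. Each runs from 250 bases before to 50 bases after the gene start, 5′ to 3′ on the strand of the gene, from RefSeq on GRCm38.p6, and capitals mark GCGTG or its reverse complement CACGC. The windows are chr17:79715012-79715311 on the minus strand for Cyp1b1, chr9:57697363-57697662 on the plus strand for Cyp1a1, chr13:74292282-74292581 on the minus strand for Ahrr and chr3:65528197-65528496 on the plus strand for Tiparp.
Cyp1b1: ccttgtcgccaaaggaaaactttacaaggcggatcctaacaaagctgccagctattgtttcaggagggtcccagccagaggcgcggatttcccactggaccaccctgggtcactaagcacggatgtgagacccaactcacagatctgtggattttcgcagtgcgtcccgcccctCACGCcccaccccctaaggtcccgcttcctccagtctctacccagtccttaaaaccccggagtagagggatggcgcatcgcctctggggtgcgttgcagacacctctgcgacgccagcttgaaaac
Cyp1a1: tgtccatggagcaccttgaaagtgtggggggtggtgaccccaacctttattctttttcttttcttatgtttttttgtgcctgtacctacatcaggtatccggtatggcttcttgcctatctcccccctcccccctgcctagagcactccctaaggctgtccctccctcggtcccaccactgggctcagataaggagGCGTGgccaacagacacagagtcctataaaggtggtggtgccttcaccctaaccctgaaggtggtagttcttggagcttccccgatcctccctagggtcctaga
Ahrr: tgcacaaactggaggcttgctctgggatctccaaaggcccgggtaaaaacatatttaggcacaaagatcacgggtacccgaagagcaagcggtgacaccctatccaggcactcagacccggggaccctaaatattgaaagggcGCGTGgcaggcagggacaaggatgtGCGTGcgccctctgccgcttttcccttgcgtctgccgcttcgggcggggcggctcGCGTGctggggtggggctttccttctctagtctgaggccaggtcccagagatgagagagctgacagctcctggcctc
Tiparp: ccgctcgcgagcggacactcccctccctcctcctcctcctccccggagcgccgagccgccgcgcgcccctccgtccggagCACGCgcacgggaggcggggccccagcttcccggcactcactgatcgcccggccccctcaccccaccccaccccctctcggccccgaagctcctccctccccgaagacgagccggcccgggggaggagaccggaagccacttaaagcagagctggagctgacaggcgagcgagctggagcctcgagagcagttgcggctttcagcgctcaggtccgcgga

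The Cyp1b1 window held 1 match, which began 76 bases before the start on the opposite strand. The Cyp1a1 window also held 1, at 54 bases before the start, and the best known AhR elements of the mouse gene lie farther upstream than this window reaches. Ahrr held 3 matches, at 107, 82 and 27 bases before the start, and the last of them was the only match in the 4 windows to the longer form TNGCGTG. Tiparp held 1 at 170 bases before the start. Arnt, the partner gene, held 1 in its window, and Ahr was not among the promoters used. Of all 32851 promoter windows of this length, 32.4% held GCGTG on either strand, 3.91% held 3 or more matches and 5.07% held TNGCGTG, so 1 match is common and describes letters only.

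Cyp1b1 was higher with each of the 3 ApoE-deficient plasmas than with wildtype plasma, and about level among the 3. All values here are RMA values on the log2 scale, in which a difference of 1 is a doubling in intensity. With ApoE-KO plasma, Cyp1b1 had levels of 7.47, 7.37, 7.28, 7.64 and 7.53 in replicates 1 to 5. With ApoE-Stab1-KO plasma its level ran from 7.05 through a median of 7.42 to 7.64, and with ApoE-Stab2-KO plasma from 7.38 through 7.45 to 7.65. With wildtype plasma it ran from 6.80 through 7.01 to 7.22. Every ApoE-KO and ApoE-Stab2-KO array thus lay above every wildtype array, while 1 ApoE-Stab1-KO array, replicate 5 at 7.05, fell inside the wildtype range. Of all genes, 1.08% had every ApoE-KO array above every wildtype array, 0.47% every ApoE-Stab1-KO array and 0.636% every ApoE-Stab2-KO array. Cyp1b1 was the 1 member of 6 with that pattern for ApoE-KO and for ApoE-Stab2-KO plasma, and because it chose the topic nothing is read from this count.

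The Cyp1b1 level averaged 7.46 ± 0.14 with ApoE-KO plasma (SD, n = 5), 7.40 ± 0.20 with ApoE-Stab1-KO plasma (SD, n = 6), 7.47 ± 0.11 with ApoE-Stab2-KO plasma (SD, n = 6) and 7.01 ± 0.14 with wildtype plasma (SD, n = 6). The log2 difference was 0.45 ± 0.09 (SE) for ApoE-KO minus wildtype, or 1.36-fold, 0.39 ± 0.08 for ApoE-Stab1-KO minus wildtype, or 1.31-fold, and 0.46 ± 0.08 for ApoE-Stab2-KO minus wildtype, or 1.38-fold. The 3 differences share the wildtype arrays and are given as a description with no test, since the genes were brought together by the higher level of Cyp1b1. Among the knockout plasmas, the differences were -0.06 ± 0.09 for ApoE-Stab1-KO minus ApoE-KO (95% interval -0.24 to 0.12), 0.02 ± 0.09 for ApoE-Stab2-KO minus ApoE-KO (-0.16 to 0.19) and 0.08 ± 0.08 for ApoE-Stab2-KO minus ApoE-Stab1-KO (-0.09 to 0.25). In the order of group means, ApoE-Stab2-KO stood 0.02 over ApoE-KO, and ApoE-KO 0.06 over ApoE-Stab1-KO, both gaps smaller than the spread within the groups. The gap of 0.39 from ApoE-Stab1-KO down to wildtype was larger than the spread of 0.17.

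**Figure D1:**
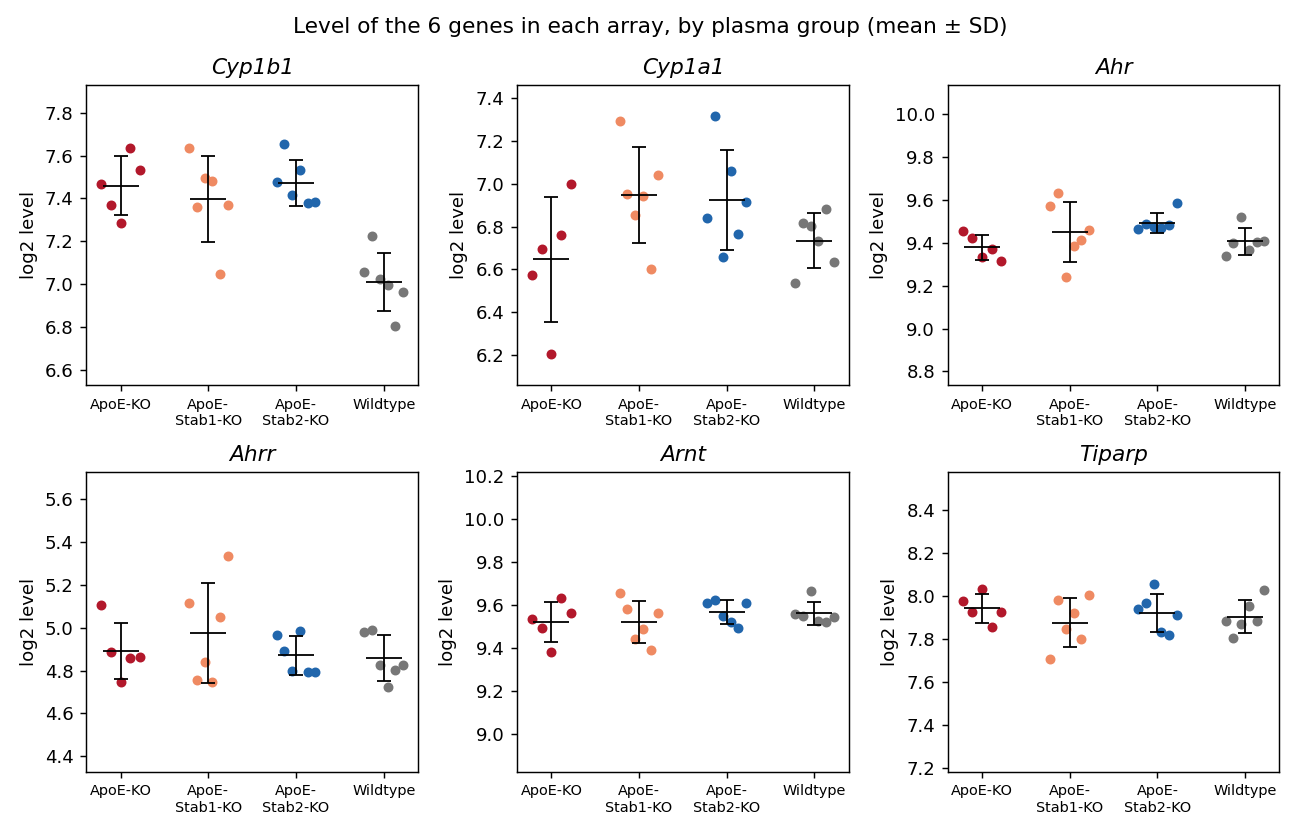
Log2 level of each of the 6 genes (vertical axes, each spanning the same width) in every array (points) of the 4 plasma groups (horizontal axes), with the group mean (line) and SD (bars). Cyp1b1 averages 7.46, 7.40 and 7.47 in the 3 ApoE-deficient groups and 7.01 in the wildtype group, while the groups of the other genes overlap, with the exception of Ahr between ApoE-Stab2-KO and ApoE-KO plasma.

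The other 5 genes did not pass the test in any comparison. Differences were tested with limma over all 24704 genes and called at a Benjamini-Hochberg adjusted p under 0.05. Of the 5 members other than Cyp1b1, 0 were called between ApoE-KO and wildtype plasma, where 0.53% of all genes were called, 0 between ApoE-Stab1-KO and wildtype plasma (0.364% of all genes) and 0 between ApoE-Stab2-KO and wildtype plasma (0.178%). They were likewise not called for ApoE-Stab1-KO minus ApoE-KO (0.00405% of all genes), ApoE-Stab2-KO minus ApoE-KO (0.0243%) or ApoE-Stab2-KO minus ApoE-Stab1-KO (0.0486%). Against so low a background, 0 of 5 says little about these genes, and their intervals say more. Over these 30 tests the smallest adjusted p was 0.528, and 3 had an unadjusted p under 0.05 in limma. In the F-test over the 4 groups, 0 of the 5 were called and 0 had an unadjusted p under 0.05, against 0.546% and 11.9% of all genes, and the smallest adjusted p was 0.456, that of Cyp1a1.

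Cyp1a1, a strongly inducible classic AhR target, had its highest means with the double knockout plasmas and its lowest with ApoE-KO plasma, with neighbours in this order about as close as the spread within the groups. The gaps were 0.02 from ApoE-Stab1-KO to ApoE-Stab2-KO (spread 0.23), 0.19 from there to wildtype (spread 0.19) and 0.09 from wildtype to ApoE-KO (spread 0.22). Both double knockout means lay above wildtype, as they did for Cyp1b1. Its level was 6.58, 6.69, 6.21, 6.76 and 6.998 in ApoE-KO replicates 1 to 5. It ran from 6.60 through a median of 6.95 to 7.29 with ApoE-Stab1-KO plasma, from 6.66 through 6.88 to 7.31 with ApoE-Stab2-KO plasma and from 6.54 through 6.77 to 6.88 with wildtype plasma. All 4 groups overlapped, and ApoE-KO held the lowest array of all, replicate 3 at 6.21. For ApoE-KO minus wildtype the log2 difference was -0.09 ± 0.13 (SE), with a 95% interval of -0.35 to 0.17 that lies below the 0.45 measured for Cyp1b1 (limma adjusted p = 0.885). For ApoE-Stab1-KO minus wildtype it was 0.21 ± 0.12 (interval -0.03 to 0.46, adjusted p = 0.528), and for ApoE-Stab2-KO minus wildtype 0.19 ± 0.12 (interval -0.06 to 0.44, adjusted p = 0.715). The interval with ApoE-Stab1-KO plasma includes the Cyp1b1 difference of 0.39, and that with ApoE-Stab2-KO plasma ends just under the Cyp1b1 difference of 0.46. The Cyp1b1 differences have 95% intervals of their own, 0.27 to 0.63 for ApoE-KO, 0.22 to 0.56 for ApoE-Stab1-KO and 0.29 to 0.63 for ApoE-Stab2-KO plasma. Those of both double knockouts overlap the Cyp1a1 intervals. Cyp1b1 was chosen for its higher level, and the 2 genes were not tested against each other.

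Between the double knockouts and ApoE-KO plasma, Cyp1a1 showed its widest gaps. The log2 difference was 0.30 ± 0.13 (SE) for ApoE-Stab1-KO minus ApoE-KO (unadjusted p = 0.0251, limma adjusted p = 0.864) and 0.28 ± 0.13 for ApoE-Stab2-KO minus ApoE-KO (unadjusted p = 0.0363, adjusted p = 0.57). Neither passed the adjustment, and an unadjusted p under 0.05 was reached by 5.57% and 8.36% of all genes in these 2 comparisons, which share the 5 ApoE-KO arrays. Without ApoE-KO replicate 3 the differences were 0.19 and 0.17. For ApoE-Stab2-KO minus ApoE-Stab1-KO the difference was -0.02 ± 0.12 (adjusted p = 0.974).

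The receptor gene Ahr and its partner Arnt were close to level. Ahr had 9.45, 9.42, 9.33, 9.37 and 9.31 in ApoE-KO replicates 1 to 5, and its level ran from 9.24 through a median of 9.44 to 9.63 with ApoE-Stab1-KO plasma, from 9.46 through 9.48 to 9.59 with ApoE-Stab2-KO plasma and from 9.34 through 9.40 to 9.52 with wildtype plasma. The ApoE-Stab2-KO arrays all lay just above the ApoE-KO arrays, as they did for 0.551% of all genes, and the other groups overlapped. That difference was 0.11 ± 0.05 (SE, unadjusted p = 0.0481, limma adjusted p = 0.595). Against wildtype, Ahr differed by -0.03 ± 0.05 with ApoE-KO plasma (adjusted p = 0.923), by 0.04 ± 0.05 with ApoE-Stab1-KO plasma (adjusted p = 0.81) and by 0.09 ± 0.05 with ApoE-Stab2-KO plasma (adjusted p = 0.697). Arnt, which pairs with AhR and with the hypoxia-inducible factors, averaged 9.52 ± 0.09 with ApoE-KO plasma, 9.52 ± 0.10 with ApoE-Stab1-KO plasma, 9.57 ± 0.05 with ApoE-Stab2-KO plasma and 9.56 ± 0.05 with wildtype plasma (SD). Its differences from wildtype were -0.04 for ApoE-KO, -0.04 for ApoE-Stab1-KO and 0.01 for ApoE-Stab2-KO, with 95% intervals between -0.14 and 0.11 in all 3.

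The feedback inhibitors Ahrr and Tiparp, both targets of the receptor, did not pass either. Ahrr, which competes with AhR for ARNT, averaged 4.89 ± 0.13 with ApoE-KO plasma, 4.97 ± 0.23 with ApoE-Stab1-KO plasma, 4.87 ± 0.09 with ApoE-Stab2-KO plasma and 4.86 ± 0.11 with wildtype plasma (SD). The probe set of Ahrr was dim, near the median of 4.30 over all genes, which leaves little room to see a fall. Its differences from wildtype were 0.03 (95% interval -0.15 to 0.21), 0.12 (-0.06 to 0.29) and 0.01 (-0.16 to 0.18) for ApoE-KO plasma, ApoE-Stab1-KO plasma and ApoE-Stab2-KO plasma. Tiparp, an ADP-ribosyltransferase that dampens AhR, had 7.98, 7.93, 8.03, 7.85 and 7.92 in ApoE-KO replicates 1 to 5. It ran from 7.71 through a median of 7.88 to 8.00 with ApoE-Stab1-KO plasma, from 7.82 through 7.93 to 8.05 with ApoE-Stab2-KO plasma and from 7.80 through 7.88 to 8.03 with wildtype plasma. The Tiparp groups overlapped throughout. The Tiparp intervals against wildtype were -0.08 to 0.16 for ApoE-KO, -0.14 to 0.08 for ApoE-Stab1-KO and -0.09 to 0.13 for ApoE-Stab2-KO plasma. The Cyp1b1 intervals in the same comparisons began at 0.27, 0.22 and 0.29. Cyp1b1 was chosen for its higher level, and the 2 genes were not tested against each other. For Ahr, Ahrr, Arnt and Tiparp together, the upper bounds against wildtype reached at most 0.29.

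**Figure D2:**
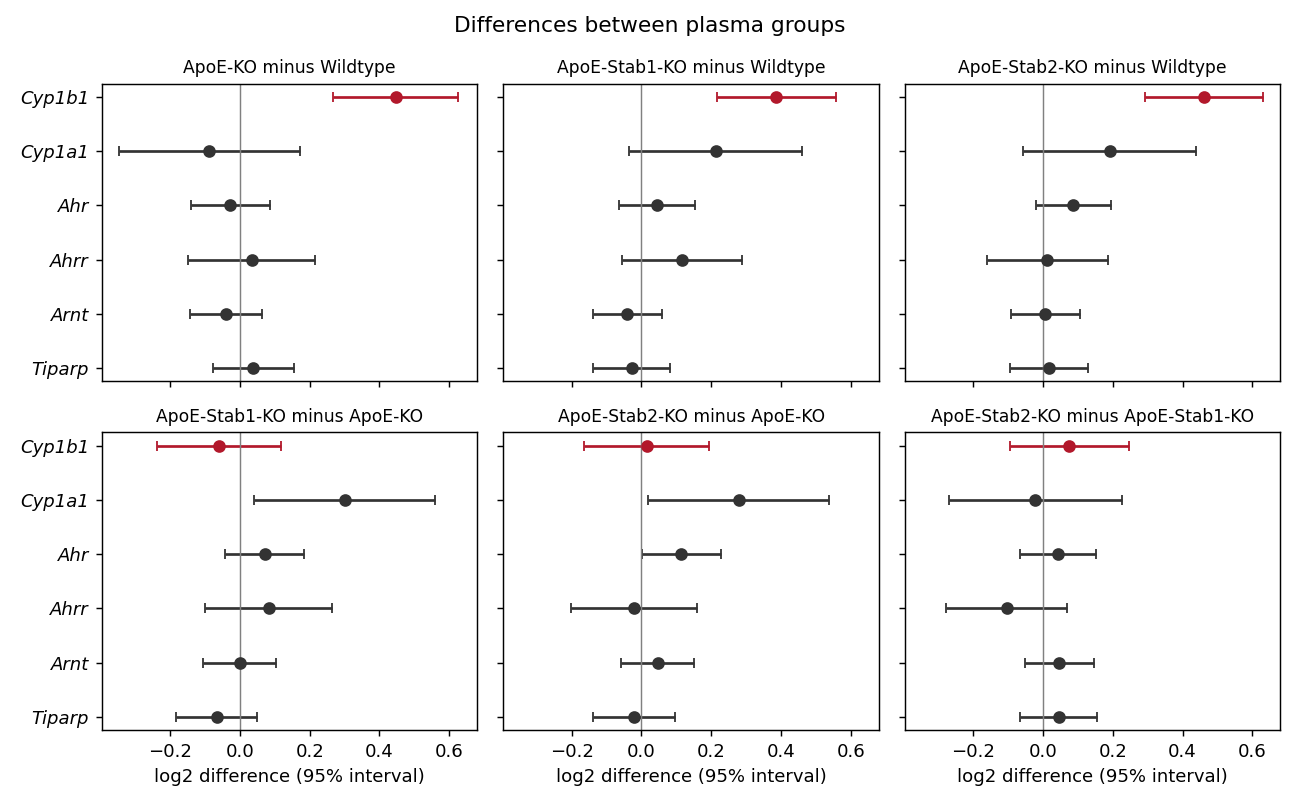
Log2 difference (points) with its 95% interval from limma (bars) for the 6 genes, 1 panel for each of the 6 comparisons. Against wildtype plasma Cyp1b1 (red) stands at 0.45, 0.39 and 0.46, while the other genes have intervals that include 0. In the comparisons of the double knockouts with ApoE-KO plasma, Cyp1a1 stands at 0.30 and 0.28.

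Although their group means differed, Cyp1b1 and Cyp1a1 varied together from array to array within the ApoE-deficient groups. After each group mean was taken away, their levels correlated at Pearson r = 0.78 (Spearman rho = 0.71) over the 17 ApoE-deficient arrays and at r = 0.71 without the 2 arrays farthest from the median of Cyp1b1. Over the 6 wildtype arrays the correlation was -0.20 (rho = -0.20), and the 2 values were not tested against each other. Over all 23 arrays the correlation of these deviations was 0.64, higher than that of 99.5% of all genes with Cyp1b1, and it stayed between 0.56 and 0.73 with any 1 array left out. Arnt had a correlation of 0.62 with Cyp1b1 on this scale, Ahrr 0.16, Ahr -0.01 and Tiparp -0.28. These correlations are descriptions, since arrays were normalized together and share any variation in RNA or labelling.

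**Figure D3:**
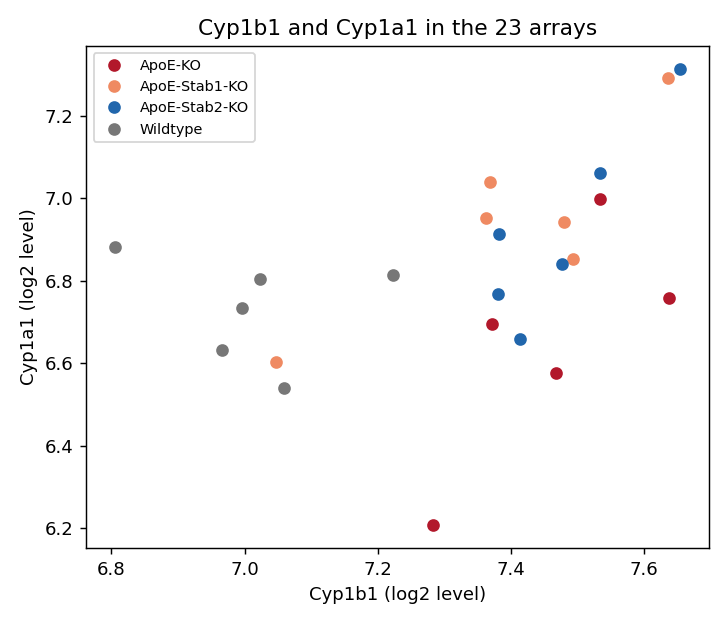
Log2 level of Cyp1a1 (vertical axis) against that of Cyp1b1 (horizontal axis) in the 23 arrays, coloured by plasma group. The 17 ApoE-deficient arrays rise from left to right, 16 of them to the right of all wildtype arrays, while the 6 wildtype arrays, with Cyp1b1 between 6.80 and 7.22, show no such slope.

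The wider pathway was read from 6 lists with 84 genes other than the 6 above, of which 76 were measured and 8 were not analysed here. In the list of AhR targets, 0 of 12 measured genes rose and 0 fell in each of the 6 comparisons, in which 0.00405% to 0.53% of all genes were called. Against so low a background, 0 of 12 says little about these genes, and only 7 of the 12 lay above the median level of all genes. For ApoE-KO minus wildtype the median difference of this list was 0.0097, against 0.0026 over all genes, and 1 gene had an unadjusted p under 0.05, as did 10.5% of all genes. That gene was Cyp1a2, a P450 enzyme best known from liver, at 0.18 ± 0.07 (SE, limma adjusted p = 0.35). Slc7a5, an amino acid transporter, differed by 0.19 ± 0.13 (adjusted p = 0.673), Gsta2, a glutathione transferase, by 0.08 ± 0.05 (adjusted p = 0.579), and Ugt1a6b, a glucuronosyltransferase, by -0.30 ± 0.22 (adjusted p = 0.698). The quinone reductase gene Nqo1, a target of AhR and of NRF2, differed by -0.03 ± 0.06 (adjusted p = 0.927). With each double knockout plasma, 2 of the 12 had an unadjusted p under 0.05 against wildtype (11.3% and 8.49% of all genes). For ApoE-Stab1-KO they were Slc7a5 (0.27 ± 0.12) and Ugt1a6b (-0.46 ± 0.21). For ApoE-Stab2-KO they were Gsta2 (0.11 ± 0.05) and the aldehyde dehydrogenase gene Aldh3a1 (0.23 ± 0.10). Aldh3a1 differed by 0.11 with ApoE-KO and by 0.19 with ApoE-Stab1-KO plasma. Cyp1a2 and Gsta2 lay below the median level of all genes, at 3.84 and 2.70 with ApoE-KO plasma and 3.66 and 2.62 with wildtype plasma, so little signal stood behind them.

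Genes of the receptor complex, its chaperones and its coactivators were not called either, at 0 of 11 measured genes in each of the 6 comparisons. With 0.00405% to 0.53% of all genes called, this count says little. The median for ApoE-KO minus wildtype was 0.05. An unadjusted p under 0.05 was reached by 3 of the 11 in that comparison, against 10.5% of all genes. The closest to the threshold was Ptges3, the p23 co-chaperone of HSP90, with ApoE-Stab1-KO plasma. It ran from 7.90 through 7.94 to 8.35 with ApoE-Stab1-KO plasma and from 7.53 through 7.72 to 7.88 with wildtype plasma, with no overlap, and differed by 0.33 ± 0.08 (SE, limma adjusted p = 0.0807). The chaperone gene Hsp90aa1 differed by 0.44 ± 0.15 for ApoE-KO minus wildtype (adjusted p = 0.229), on a dim probe set. With ApoE-Stab1-KO and ApoE-Stab2-KO plasma it differed by 0.34 and 0.37 (adjusted p = 0.353 and 0.434). The corepressor Nrip1 differed by 0.18 ± 0.06 with ApoE-KO plasma (adjusted p = 0.192), then by 0.18 and 0.12 (adjusted p = 0.173 and 0.56). The coactivator Ncoa1 differed by -0.11 ± 0.06 with ApoE-KO plasma (adjusted p = 0.501), then by -0.09 and -0.07. Positive differences from wildtype numbered 7, 6 and 6 of the 11.

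Relatives of AhR in the bHLH-PAS family, which share ARNT or resemble it, were called at 0 of 13 genes in each comparison. Of all genes, 0.00405% to 0.53% were called, so this count says little, and 7 of the 13 lay above the median level of all genes. For ApoE-KO minus wildtype, Hif1a, a hypoxia-inducible factor, differed by 0.14 ± 0.05 (limma adjusted p = 0.32) and Epas1, the form typical of endothelium, by -0.15 ± 0.06 (adjusted p = 0.381). Arnt2, a close relative of Arnt, differed by -0.19 ± 0.08 (adjusted p = 0.41) and Npas1 by -0.16 ± 0.10 (adjusted p = 0.626). Enzymes that turn tryptophan or its products into AhR ligands or break them down were called at 0 of 11 genes in each comparison, against the same shares of all genes. Only 4 of the 11 lay above the median level of 4.30, with Ido1 close to it at a mean of 4.39 and Tdo2 far below at 2.88. Little signal thus stood behind most of them. Maoa, a monoamine oxidase, differed by 0.17 ± 0.06 for ApoE-KO minus wildtype (adjusted p = 0.313), and the tryptophan dioxygenase Tdo2 (-0.10, adjusted p = 0.446), the indoleamine dioxygenase Ido1 (0.08, adjusted p = 0.745) and the formamidase Afmid (-0.13, adjusted p = 0.765) did not pass.

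Among other P450 genes and their partners, Cyp26b1 was the 1 of 24 measured genes that passed, and it rose with each ApoE-deficient plasma. Against wildtype, the share of all genes called was 0.53% with ApoE-KO plasma, 0.364% with ApoE-Stab1-KO plasma and 0.178% with ApoE-Stab2-KO plasma. Of the 24 genes, 12 lay above the median level of all genes, Cyp26b1 among them. The list was chosen with earlier results of these data known, so nothing is read from this count. CYP26B1 breaks down retinoic acid and is not one of the classic AhR targets. Its level was 7.45 to 8.32 with ApoE-KO plasma, 7.90 to 8.24 with ApoE-Stab1-KO plasma, 8.13 to 8.29 with ApoE-Stab2-KO plasma and 7.34 to 7.76 with wildtype plasma. The ApoE-KO arrays overlapped the wildtype arrays, and those of both double knockouts did not. The log2 difference from wildtype was 0.47 ± 0.10 (SE, limma adjusted p = 0.0383) for ApoE-KO, 0.51 ± 0.10 (adjusted p = 0.0162) for ApoE-Stab1-KO and 0.73 ± 0.10 (adjusted p = 0.000704) for ApoE-Stab2-KO plasma. With ApoE-KO plasma the call was lost when any of ApoE-KO replicates 1 to 4 or of wildtype replicates 2 to 6 was left out (adjusted p of 0.0535 to 0.119), and with only the arrays of these 2 groups in the fit (adjusted p = 0.162). Cyp46a1, the brain cholesterol hydroxylase, differed by -0.27 ± 0.07 for ApoE-KO minus wildtype (adjusted p = 0.103), the fatty acid hydroxylase Cyp4f13 by 0.30 ± 0.11 (adjusted p = 0.284) and Cyp2u1, a further fatty acid hydroxylase, by 0.15 ± 0.08, which did not pass either.

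In mouse endothelium, loss of Cyp1b1 has been reported to raise thrombospondin-2 and lower the endothelial nitric oxide synthase, so a short list of such genes was read as well. Of its 5 genes, 1 rose and 0 fell for ApoE-KO minus wildtype, and 0 passed in the other comparisons. The gene that rose was Thbs1, thrombospondin-1, an inhibitor of angiogenesis. Its level was 6.25 to 6.43 with ApoE-KO plasma and 5.37 to 6.09 with wildtype plasma, with no overlap, and the difference was 0.57 ± 0.10 (SE, limma adjusted p = 0.0094). Its differences with ApoE-Stab1-KO plasma (0.37, adjusted p = 0.119) and ApoE-Stab2-KO plasma (0.41, adjusted p = 0.119) did not pass. Thbs2 differed by -0.05 ± 0.06 for ApoE-KO minus wildtype (adjusted p = 0.854), by -0.16 ± 0.06 for ApoE-Stab1-KO minus wildtype (adjusted p = 0.232) and by -0.06 ± 0.06 for ApoE-Stab2-KO minus wildtype (adjusted p = 0.809). The probe set of Thbs2 was dim, at a mean of 3.74 against a median of 4.30 over all genes, so little signal stood behind it. For ApoE-KO minus wildtype, the nitric oxide synthase gene Nos3 differed by -0.08 ± 0.04 (adjusted p = 0.496) and the superoxide dismutase gene Sod2 by 0.03 ± 0.05 (adjusted p = 0.892). An unadjusted p under 0.05 was reached by 1 of these 5 genes with ApoE-KO plasma (10.5% of all genes), by 4 with ApoE-Stab1-KO plasma (11.3%) and by 2 with ApoE-Stab2-KO plasma (8.49%), each against wildtype. Their directions were mixed, with 3, 2 and 3 of the 5 differences positive. The 4 with ApoE-Stab1-KO plasma were all but Sod2, with Thbs1 and the dim Postn (mean 3.12) higher and Thbs2 and Nos3 lower. Nos3 averaged 11.46 with each ApoE-deficient plasma and 11.54 with wildtype plasma. Over the 6 lists, 2 of 76 genes were called for ApoE-KO minus wildtype (2.63%), and 1 of 76 for each double knockout minus wildtype (1.32%), against 0.53%, 0.364% and 0.178% of all genes. The calls were those of Cyp26b1 and Thbs1. Because the lists were chosen with earlier results of these data known, nothing is read from these shares. An unadjusted p under 0.05 was reached by 13 of the 76 with ApoE-KO plasma (10.5% of all genes), 15 with ApoE-Stab1-KO plasma (11.3%) and 16 with ApoE-Stab2-KO plasma (8.49%). The medians of the 76 differences were -0.0038, 0.0068 and 0.018, against 0.0026, 0.0037 and -0.0020 over all genes.

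**Figure D4:**
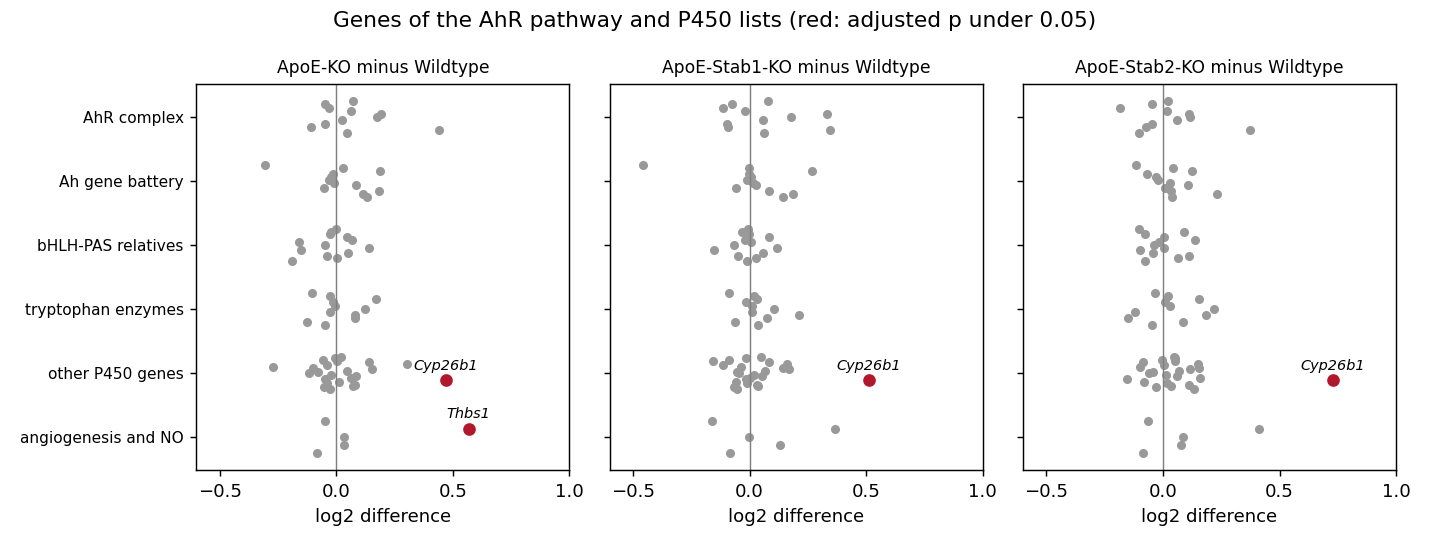
Log2 difference from wildtype plasma (horizontal axes) of each measured gene (points) in the 6 lists (rows), 1 panel for each ApoE-deficient plasma. Red points, with an adjusted p under 0.05, are Cyp26b1 in all 3 panels and Thbs1 in the ApoE-KO panel, and no gene of the AhR target or receptor complex lists is red.

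The genes whose pattern over the 23 arrays was most like that of Cyp1b1 were led by secreted guidance and growth factors. The 5 other members and the 84 listed genes held 0 of the first 8 places. They are few beside the 10775 genes ranked, so this count says little about them. Among 10775 protein-coding genes above the median level, the 8 with the highest Pearson r were the guidance factor Sema3e (0.86), the EGF receptor ligand Ereg, which has itself been reported as an AhR target (0.84), the guidance factor Sema3c (0.81), the matrix protein gene Tinagl1 (0.78), the zinc finger gene Zfp235 (0.78), the lipase inhibitor Angptl4 (0.78), the hedgehog ligand Dhh (0.78) and the sialyltransferase St6gal1 (0.78). Cyp1a1 reached 0.47, and Arnt, Ahrr, Ahr and Tiparp had 0.25, 0.19, 0.15 and -0.09. The likeness of these 8 rests in part on a shared difference from wildtype plasma. For ApoE-KO minus wildtype, Sema3e differed by 0.50, Sema3c by 0.74, Dhh by 0.32, Ereg by 0.30, Angptl4 by 0.24, St6gal1 by 0.20, Zfp235 by 0.17 and Tinagl1 by 0.15. Once group means were taken away, r was between 0.33 for Sema3c and 0.53 for St6gal1 in 7 of them, while Zfp235, on a dim probe set, had 0.84.

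Endothelial markers were high in all arrays, and markers of other cells, among them mesenchymal cells, in which Cyp1b1 is also made, were set beside these results. All 12 endothelial markers lay above the median level of all genes, and their mean log2 level was 10.99 to 11.18 with ApoE-KO plasma, 11.02 to 11.20 with ApoE-Stab1-KO plasma, 11.14 to 11.23 with ApoE-Stab2-KO plasma and 11.16 to 11.22 with wildtype plasma. Of these 12, 2 fell for ApoE-KO minus wildtype, Egfl7, a secreted endothelial factor (-0.27 ± 0.04, SE, limma adjusted p = 0.00136), and the tight junction gene Cldn5 (-0.27 ± 0.06, adjusted p = 0.0459). Egfl7 also fell for ApoE-Stab1-KO minus wildtype (-0.21 ± 0.04, adjusted p = 0.0122), and 0 of 12 were called for ApoE-Stab2-KO minus wildtype, where Cyp1b1 differed by 0.46. The shares of all genes called were 0.53%, 0.364% and 0.178% in these comparisons. The median of the 12 differences was -0.06 with ApoE-KO plasma (1 positive), -0.07 with ApoE-Stab1-KO plasma (5 positive) and -0.01 with ApoE-Stab2-KO plasma (4 positive). The largest positive ones with the double knockouts were those of Vwf, von Willebrand factor, at 0.27 ± 0.12 with ApoE-Stab1-KO plasma (adjusted p = 0.414) and 0.43 ± 0.12 with ApoE-Stab2-KO plasma (adjusted p = 0.231), which did not pass. The mean over 7 fibroblast markers was 4.01 to 4.12 with ApoE-KO plasma, 4.02 to 4.16 with ApoE-Stab1-KO plasma, 4.01 to 4.11 with ApoE-Stab2-KO plasma and 3.93 to 4.08 with wildtype plasma, and 0 of 7 were called in any comparison with wildtype. The median difference of the 7 from wildtype was 0.03 with ApoE-KO plasma (5 positive), 0.06 with ApoE-Stab1-KO plasma (6 positive) and -0.03 with ApoE-Stab2-KO plasma (3 positive). Only Pdgfra and 1 further fibroblast marker lay above the median level, and Pdgfra, which had the largest difference of the 7 each time, differed from wildtype by 0.27 ± 0.12, 0.27 ± 0.12 and 0.39 ± 0.12 (SE, limma adjusted p = 0.429, 0.374 and 0.247) for ApoE-KO plasma, ApoE-Stab1-KO plasma and ApoE-Stab2-KO plasma. The mean over 7 smooth muscle markers was 5.02 to 5.13 with ApoE-KO, 5.04 to 5.13 with ApoE-Stab1-KO, 5.04 to 5.13 with ApoE-Stab2-KO and 5.10 to 5.19 with wildtype plasma, again with 0 called. Of 4 lymphatic markers, 3 lay above the median level of all genes, with a mean level over all arrays of 12.7 for the hyaluronan receptor Lyve1, 9.64 for Flt4 and 5.02 for Pdpn, while Prox1, the transcription factor that defines lymphatic endothelium, was at 3.27. Of 6 macrophage and blood markers, Cd68, a lysosomal protein gene, was at 11.2 and the other 5 lay below the median level, and so did all 3 liver markers measured. In the comparisons with wildtype, 0 of these 13 markers were called by limma. An unadjusted p under 0.05 was reached by 2 with ApoE-KO plasma, 2 with ApoE-Stab1-KO plasma and 0 with ApoE-Stab2-KO plasma. The shares of all genes at that threshold were 10.5%, 11.3% and 8.49%. The part of other cell types in the Cyp1b1 difference was not tested. In bulk RNA, a change in the number of cells that make Cyp1b1 and a change in each cell cannot be told apart.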

How the data were processed

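The 23 arrays measured biotin-labelled cRNA on an Affymetrix platform, per the labels' protocols. The deposited values are RMA values on the log2 scale, per the submitters' processing notes and their range of 2.52 to 13.9, and the sources used here do not give the RMA version or the annotation build. Sorted values differed between arrays by at most 0.0019, so a change in 1 gene is measured against the rest of its array. In ApoE-KO replicate 1, 4.21% of values were exact binary fractions, against 100% in every other array. Pairs of arrays correlated at r = 0.992 to 0.997, and no 2 were identical. The number of arrays limits the precision.

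Of 25428 probe sets, 24705 had 1 gene symbol in the platform annotation, 0 had several and 723 had none and were not tested. The brighter set was kept per gene, leaving 24704 genes. The fit was made with limma 3.58.1 under R 4.3.3 (lmFit and eBayes, 1 mean per group, all 23 arrays, 19 residual and 4.19 prior degrees of freedom), adjusted by Benjamini-Hochberg over all genes in each comparison, with no filter on dim genes. All adjusted p-values are from this fit, which was tested on simulated data. Figures were drawn with matplotlib 3.10.9.

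The members and lists were chosen with earlier results of these data known. The rule for named genes took all members, every list gene called, the 4 with the smallest p per list for ApoE-KO minus wildtype, and the 8 most like Cyp1b1 over arrays and within groups among protein-coding genes above the median level. Nqo1, Aldh3a1, Pdgfra, Vwf, Egfl7, Cldn5 and the lymphatic and blood markers were chosen after their values were seen. Promoter sequences are from RefSeq, GRCm38.p6, with 5 of the 6 members found. Alternatives were quantile normalization again, median centring, genes above the median level, trend and robust eBayes, weights per array, a replicate block, probe sets in place of genes, fits limited to the arrays compared, and each array left out.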

Additional observations from a re-analysis of the deposited data

Results flagged for a closer look

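In groups of 5 or 6 arrays, 11 values lay far from the rest of their group by Dixon's criterion at 95%, out of 128 sets of 1 gene in 1 group, and chance flags about 1 in 20 such sets. Among the members, Ahr stood at 9.59 in ApoE-Stab2-KO replicate 6, above the 9.46 to 9.49 of the other arrays of that group, and Arnt at 9.66 in wildtype replicate 3, above 9.52 to 9.56. No value of Cyp1b1, Cyp1a1, Ahrr or Tiparp was flagged in this way.

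Among AhR targets, Cyp1a2 stood at 3.45 in ApoE-Stab1-KO replicate 1, below 3.74 to 3.89, and at 3.96 in ApoE-Stab2-KO replicate 2, above 3.56 to 3.66, while Ugt1a6b stood at 5.85 in ApoE-KO replicate 2, below 6.48 to 6.54. Cyp26b1 stood at 8.24 in ApoE-Stab1-KO replicate 1, above 7.90 to 8.03. Ido1 stood at 4.08 in ApoE-Stab2-KO replicate 5, below 4.25 to 4.32. Nos3 stood at 11.53 in ApoE-KO replicate 5, above 11.44 to 11.45. Wildtype replicate 1 held 3 of the 11 values, with Epas1 at 11.62 (the others at 11.15 to 11.27), Maoa at 8.75 (8.90 to 8.97) and Sod2 at 8.75 (8.96 to 9.03).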

How the results depend on the processing

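The Cyp1b1 difference moved by less than 1 SD of the replicates in all 117 other fits. Against wildtype it ran from 0.40 to 0.49 for ApoE-KO, 0.34 to 0.46 for ApoE-Stab1-KO and 0.42 to 0.50 for ApoE-Stab2-KO with 1 array left out. Among the knockout plasmas it ran from -0.11 to 0.01 for ApoE-Stab1-KO minus ApoE-KO, from -0.03 to 0.06 for ApoE-Stab2-KO minus ApoE-KO and from 0.01 to 0.12 for ApoE-Stab2-KO minus ApoE-Stab1-KO. The other 5 members were called in 0 of 147 counts, with a smallest adjusted p of 0.293 over 585 values. The number of list genes called for ApoE-KO minus wildtype was 2 as reported, 1 with only the arrays compared and 1 to 2 with 1 array left out, in each case through Cyp26b1, and the cause was not tested.

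Over all genes, counts for ApoE-KO minus wildtype were 131 as reported, 212 with array weights, 80 with only the arrays compared and 55 to 109 with 1 array left out. For ApoE-Stab1-KO minus wildtype they were 90 as reported, 151 among genes above the median level, 21 with only the arrays compared and 54 to 124 with 1 array left out, and for ApoE-Stab2-KO minus wildtype 44 as reported and 20 to 41. Among knockout plasmas, 1, 6 and 12 genes as reported became 0 to 2, 0 to 18 and 4 to 37. Same-numbered arrays showed no strong shared deviation (r of -0.10 to 0.11 over 33 pairs, 1 of them over 0.1). This cannot tell whether the numbers pair samples, since a weak shared effect could go unseen. With the replicate number as a block, the Cyp1b1 differences from wildtype were 0.44, 0.39 and 0.46, and the block called 91, 61 and 34 genes against wildtype, 0 and 0 for the double knockouts minus ApoE-KO, and no other member.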

Other observations

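Within groups, the 8 genes that varied most like Cyp1b1 had 1 in common with the 8 most like it over all arrays, the zinc finger gene Zfp235. After each group mean was taken away, the highest correlations over the 23 arrays belonged to Zfp235 (r = 0.84), the Ras GTPase activator Rasa3 (0.78), Gtf3c5, a subunit of the RNA polymerase III factor TFIIIC (0.78), Cep85 (0.78), Wdpcp (0.77), the signalling adaptor Traf5 (0.76), the chromatin protein gene Brd8 (0.76) and the phosphatase Ctdp1 (0.76). With any 1 array left out, the lowest of these values was 0.65, for Wdpcp. ApoE-KO replicate 3 and ApoE-Stab1-KO replicate 5 were the lowest arrays of their groups for Cyp1b1 and for each of these 8 genes. The probe set of Zfp235 was dim, with group means of 4.26 to 4.47 beside a median of 4.30 over all genes. For ApoE-KO minus wildtype these genes differed by between -0.13 for Cep85 and 0.17 for Zfp235. Cyp1a1, at 0.64 on the same scale, was higher than 99.5% of all genes, and Arnt, at 0.62, higher than 99.3%. Cyp1a1 and Arnt correlated with each other at 0.68, and Ahr and Arnt at 0.57. These are descriptions of arrays that share their normalization, and no test was made.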
